A study of Mus musculus with 12 samples.

Results

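The epidermal growth factor (EGF) receptor family and its ligands were measured in *Man1a2* WT and null mice at birth, in 2 tissues, as 10 of the 24421 genes listed in the count tables. The members were the 4 ERBB receptors *Egfr*, *Erbb2*, *Erbb3* and *Erbb4* and 6 ligands, *Egf*, *Tgfa*, *Hbegf*, *Areg*, *Ereg* and *Btc*, matched by gene symbol, and all 10 were listed. The family was selected on the higher *Egfr* level of null liver, so the genotype contrasts of *Egfr* are given as a description without a test. Total RNA came from whole liver and whole lung of postnatal day 0 mice that were either wild type (WT, *Man1a2*+/+) or homozygous for a deletion of *Man1a2* exon 2 (null, *Man1a2*-/-), with 3 liver and 3 lung libraries of each genotype. The deletion is carried in every cell, and both genotypes descend from heterozygous parents. The gene encodes an alpha-mannosidase that trims N-linked glycans, and the study describes null pups with unexpanded alveoli and respiratory failure, which cannot be told apart here from the loss of the enzyme itself.

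The ERBB proteins are receptor tyrosine kinases that carry many N-linked glycans. EGF, transforming growth factor alpha (*Tgfa*) and amphiregulin (*Areg*) bind EGFR, while heparin-binding EGF (*Hbegf*), betacellulin (*Btc*) and epiregulin (*Ereg*) bind both EGFR and ERBB4. ERBB2 has no ligand of its own and serves as a dimer partner, and ERBB3 binds neuregulins but has little kinase activity. The ligands are made as membrane proteins and are released by ADAM proteases, after which the receptors signal through the RAS-ERK and PI3K-AKT pathways. In the liver EGFR is abundant on hepatocytes and takes part in regeneration, and in the developing lung the family takes part in branching and in the maturation of alveolar cells.

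On GRCm38 (GENCODE M21 annotation), *Egfr* lies on the plus strand of chromosome 11 from 16752203 to 16918158, and *Erbb2* on the same chromosome from 98412470 to 98437716. *Ereg*, *Areg* and *Btc* are neighbours on chromosome 5, from 91074622 to 91093646, 91139599 to 91148432 and 91357261 to 91402994 (*Btc* on the minus strand). *Tgfa* lies on chromosome 6 from 86195223 to 86275719 and *Egf* on chromosome 3 from 129677565 to 129755316. The RefSeq promoter table (GRCm38.p6) held 7 of the 10 members, without *Erbb3*, *Ereg* and *Hbegf*. The 250 bases upstream of the gene start are shown for *Egfr* (chr11:16751953-16752202, plus strand), around which the family was chosen, for *Tgfa* (chr6:86194972-86195221, plus strand) and *Btc* (chr5:91402995-91403244, minus strand), 2 ligands whose direction differed between the tissues, and for *Areg* (chr5:91139349-91139598, plus strand), which was nearly silent in liver. Each is written 5′ to 3′ on the gene's strand, and the capitals mark a GC box (GGGCGG, or CCGCCC when on the other strand) or a TATA box (TATAAA).
Egfr: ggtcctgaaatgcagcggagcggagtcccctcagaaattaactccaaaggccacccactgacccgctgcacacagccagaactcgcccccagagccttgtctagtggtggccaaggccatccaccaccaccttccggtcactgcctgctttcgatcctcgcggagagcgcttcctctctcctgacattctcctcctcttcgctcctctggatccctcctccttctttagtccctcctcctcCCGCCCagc
Tgfa: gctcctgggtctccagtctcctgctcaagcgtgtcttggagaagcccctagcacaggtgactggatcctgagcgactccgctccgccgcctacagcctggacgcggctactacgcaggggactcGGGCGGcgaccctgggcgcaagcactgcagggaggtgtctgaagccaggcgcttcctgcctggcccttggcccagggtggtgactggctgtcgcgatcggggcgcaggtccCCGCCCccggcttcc
Areg: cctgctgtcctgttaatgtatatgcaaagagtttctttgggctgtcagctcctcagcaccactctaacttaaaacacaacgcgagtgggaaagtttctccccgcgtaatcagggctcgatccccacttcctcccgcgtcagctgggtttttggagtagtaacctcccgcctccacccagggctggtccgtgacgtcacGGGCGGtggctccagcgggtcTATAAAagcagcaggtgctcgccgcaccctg
Btc: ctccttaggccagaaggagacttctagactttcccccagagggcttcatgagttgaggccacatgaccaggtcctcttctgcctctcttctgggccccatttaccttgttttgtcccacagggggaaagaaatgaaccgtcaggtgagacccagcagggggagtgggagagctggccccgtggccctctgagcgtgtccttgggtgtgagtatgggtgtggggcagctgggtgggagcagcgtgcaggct
Motifs were searched on both strands, and no 2 capitals runs overlap. The GC box was present once in *Egfr* and *Areg* and at 2 places in *Tgfa*, and 32.7% of 32851 mouse promoters of this length hold it. The TATA box of *Areg* is held by 12.4% of them. CCAAT (33.8% of promoters) was found in *Erbb2* alone among the members in the table, whereas TGANTCA, the AP-1 motif (6.75%), and CACGTG, the E-box (6.02%), were found in no member of the table. The *Btc* window held none of these motifs and 4 CpG dinucleotides, against a median of 6, and *Tgfa* held 19. A match describes the letters only.

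The libraries held 26759463 to 42914295 counted reads, which set a floor of 3 reads at 0.0699 to 0.112 CPM, the count of a gene after libraries are brought to a common total. Library totals were scaled by trimmed mean of M-values (TMM) factors within a tissue, and levels of different genes are compared only as CPM per kb of annotated exon. *Man1a2* itself was at 67.5, 40.7 and 52.5 CPM in WT and 40.4, 36.8 and 38.7 CPM in null liver (log2 fold change -0.47, standard error (SE) 0.17, adjusted p = 0.0809), and at 137, 99.5 and 141 CPM in WT and 56.7, 64.3 and 66.3 CPM in null lung (-1.01, SE 0.18, adjusted p = 0.0614, and -0.95 with adjusted p = 0.00430 without null lung 1). Reads over the remaining exons are counted in null mice too, so these values check the labels only in part. The libraries labelled null lung 1 and null liver 1 stood apart in their cell type markers. In null lung 1 the 6 alveolar type 2 markers summed to 105 CPM against 25956 to 33370 CPM in the other 5 lung libraries, with *Sftpc* at 35.3 CPM, and the 6 alveolar type 1 markers summed to 1119 against 2916 to 4154 CPM. In the same library muscle markers summed to 20068 CPM against 267 to 722 CPM, and stratified epithelium markers to 1993 CPM against 2.67 to 5.98 CPM. Null liver 1 held 3910 CPM of muscle markers against 3.59 to 5.26 CPM in the other liver libraries, and 2074 CPM of mesenchymal markers against 522 to 665 CPM, while its hepatocyte markers (116713 CPM) lay within the range of the others, 90304 to 142448 CPM. Airway markers were present in null lung 1, with multiciliated markers at 680 CPM against 485 to 591 CPM in the other lung libraries. Its airway secretory markers summed to 5591 CPM against 3268 to 5831 CPM, although *Scgb1a1* was at 251 against 1985 to 2812 CPM. The library labelled null lung 1 therefore went against its tissue label in alveolar markers and not in the airway sums. Results are given with and without null lung 1 and null liver 1. In whole tissue, fewer cells of a type and less RNA per cell cannot be told apart.

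**Figure D1:**
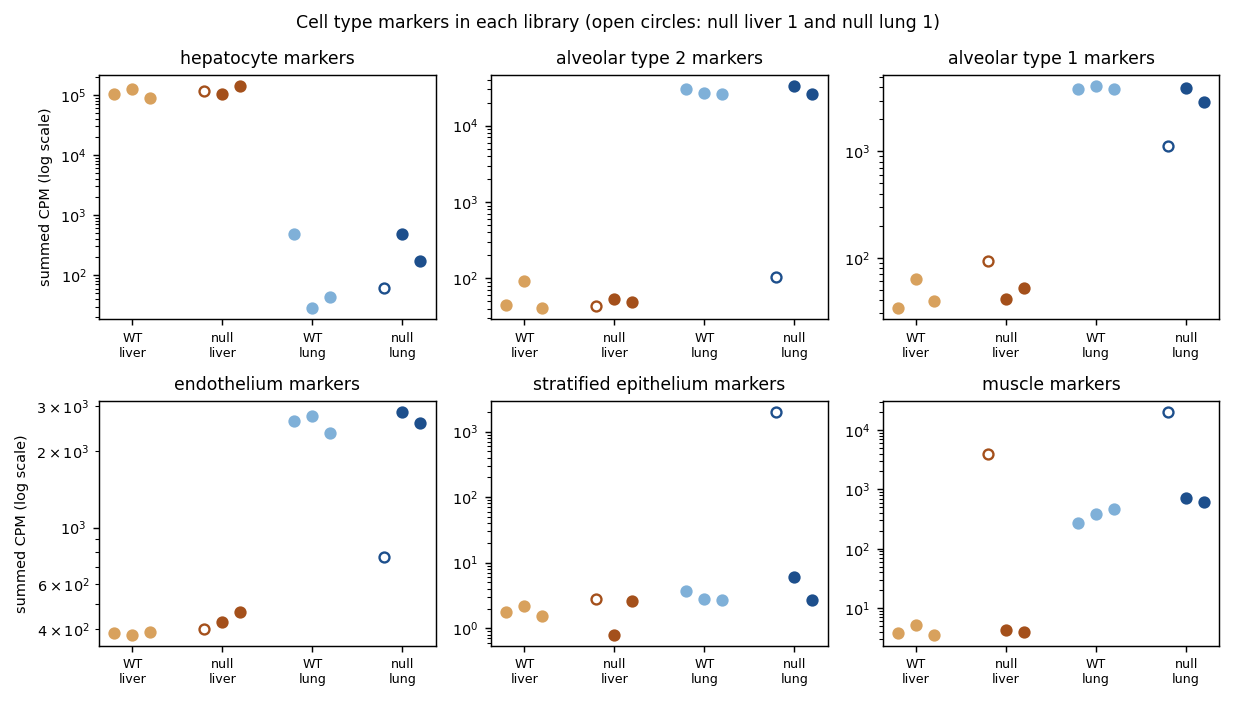
Summed CPM of 6 cell type marker lists (y axis, log scale) in each of the 12 libraries, grouped by genotype and tissue on the x axis; each point is a library and open circles are null liver 1 and null lung 1. Null lung 1 sits at 105 CPM of alveolar type 2 markers and 20068 CPM of muscle markers, apart from the other lung libraries.

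In liver *Egfr* was at 95.02, 83.6 and 77.4 CPM in the WT libraries and at 349, 273 and 370 CPM in the null libraries. The groups did not overlap, and null liver was 3.87-fold higher (log2 fold change 1.95, SE 0.15, and 1.92 without null liver 1). In lung *Egfr* was at 46.7, 38.7 and 41.4 CPM in WT and 77.3, 98.2 and 78.7 CPM in null. Null lung was higher by a log2 fold change of 1.004 (SE 0.15), or 1.07 (SE 0.13) without null lung 1, and here too the groups did not overlap. An antisense gene (*Egfros*) overlaps *Egfr*, and since the strand setting of the counting is not given, reads from the pair might not be told apart. The same holds for *Erbb2* with *Mien1*, over 9 bp, and for *Egf*, *Tgfa* and *Ereg* with unnamed or antisense genes.

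Genotype contrasts of the other members were tested in edgeR fits over all genes (quasi-likelihood F test, p adjusted by Benjamini-Hochberg) and called at an adjusted p below 0.05 and a 1.2-fold change. In liver 26.9% of 14343 genes were called, 1931 up and 1925 down. With upper-quartile scaling the median log2 fold change of all liver genes dropped by 0.11 and the split became 1434 up and 2666 down. Against this background 3 of the 7 other members tested were called, 2 up and 1 down. This count includes *Btc*, which passed the filter on low counts only through the null group. *Hbegf* and *Btc* rose, *Tgfa* fell, and *Erbb2*, *Erbb3*, *Egf* and *Ereg* did not pass. The median log2 fold change of the 7 was 0.21, against 0.02 for all genes tested. *Erbb4* and *Areg* were too low to be tested in liver. No member tested in liver changed its direction under the other scaling methods.

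*Erbb2* and *Erbb3* gave no call in liver. *Erbb2*, the ligandless dimer partner, was at 7.91, 5.29 and 7.94 CPM in WT and 5.22, 3.63 and 5.48 CPM in null liver (-0.56, SE 0.24, adjusted p = 0.115). *Erbb3* was at 35.5, 21.6 and 27.4 CPM in WT and 35.5, 27.5 and 34.7 CPM in null (0.21, SE 0.19, adjusted p = 0.443). In both genes the groups overlapped. *Erbb4* had 0, 2 and 0 reads in WT and 5, 2 and 5 reads in null liver. The pooled ratio was 5.66, with a counting interval from 1.26 to 52.0 that leaves out the spread between libraries. By length, *Egfr* made up 55.8% ± 4.92 of the summed receptor mRNA in WT liver (SD, n = 3) and 82.2% ± 0.507 in null liver. *Erbb3* took 34.2% ± 3.79 and 15.3% ± 0.560, and *Erbb2* 9.96% ± 1.69 and 2.56% ± 0.165. These shares are a description, since *Egfr* itself drives the sum.

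**Figure D2:**
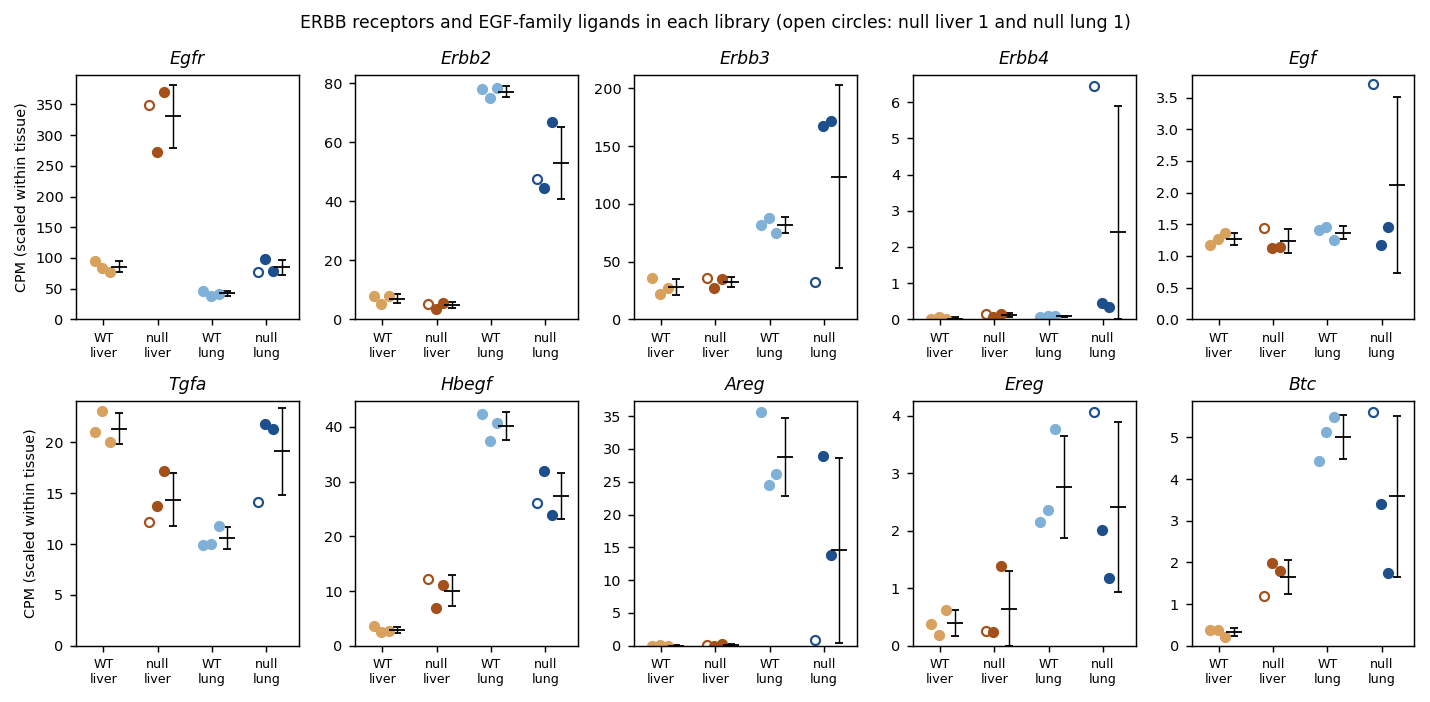
CPM, scaled within each tissue (y axis), of the 10 receptors and ligands in each library, by genotype and tissue (x axis). Points are libraries, open circles are null liver 1 and null lung 1, and black bars are mean ± SD, cut at 0. *Egfr*, *Hbegf* and *Btc* are higher in each null liver library than in any WT liver library, whereas *Tgfa* is lower in null liver and higher in null lung.

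Among the ligands of liver, *Tgfa* had the highest level per length in each library except null liver 1, where *Hbegf* was higher. It was at 21.0, 23.0 and 20.04 CPM in WT and 12.1, 13.8 and 17.2 CPM in null liver. All 3 null libraries lay below the WT libraries, and *Tgfa* fell 1.49-fold (log2 fold change -0.57, SE 0.15, adjusted p = 0.0276). This call was lost without null liver 1 (-0.46, adjusted p = 0.0542), without null liver 2 (adjusted p = 0.0634), and without WT liver 1, 2 or 3 (adjusted p = 0.0761, 0.0900 and 0.0736), and with all 12 libraries in 1 fit (adjusted p = 0.0825). *Hbegf*, whose product also binds heparan sulphate on the cell surface, was at 3.55, 2.42 and 2.72 CPM in WT and 12.2, 6.92 and 11.2 CPM in null liver. The groups did not overlap and *Hbegf* rose 3.48-fold (1.80, SE 0.26, adjusted p = 0.00467), with 1.64 and adjusted p = 0.00567 without null liver 1. *Btc* was at 0.382, 0.372 and 0.210 CPM in WT (14, 12 and 8 reads) and at 1.19, 1.98 and 1.78 CPM in null liver (42, 74 and 55 reads). It rose 5.12-fold (2.36, SE 0.35, adjusted p = 0.00497), with 2.55 and adjusted p = 0.00380 without null liver 1. In the reported fit *Btc* passed the filter on low counts only through the null libraries, where it was high, so its call is weaker than that of *Hbegf*. Each null library was above each WT library, at levels that stayed below those of *Hbegf* and *Tgfa*.

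The remaining ligands of liver gave no call. *Egf* was at 1.17, 1.27 and 1.36 CPM in WT and 1.45, 1.12 and 1.13 CPM in null (-0.04, SE 0.24, adjusted p = 0.918), a difference whose 95% confidence interval ran from -0.59 to 0.51. *Ereg* was at 0.382, 0.186 and 0.629 CPM in WT and 0.255, 0.240 and 1.39 CPM in null (0.61, SE 0.76, adjusted p = 0.578), and null liver 3 alone lay above the WT range. *Areg* had 1, 1 and 0 reads in WT and 4, 0 and 10 reads in null liver. Pooled, this is a ratio of 6.60 with a counting interval from 1.52 to 59.8, which covers counting error only and not the spread between libraries. By length, *Tgfa* made up 78.6% ± 3.36 of the mRNA of the 6 ligands in WT liver and 44.3% ± 6.63 in null liver (SD, n = 3). The share of *Hbegf* was 14.3% ± 2.80 in WT and 41.2% ± 8.67 in null, and that of *Btc* 1.68% ± 0.449 and 7.46% ± 2.73. The summed ligand level was 4.18 ± 0.187 CPM per kb in WT and 5.05 ± 0.964 in null liver, with ranges that overlapped.

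Cell type markers of liver were read beside these results. The summed hepatocyte markers were at 90304 to 124183 CPM in WT and 104249 to 142448 CPM in null liver, and all 6 were detected. The 6 bile duct cell markers summed to 83.4 to 112 CPM in WT and 76.5 to 157 CPM in null, and the 6 macrophage markers to 354 to 400 and 363 to 499 CPM. These ranges overlapped. The 6 endothelial markers were at 381 to 391 CPM in WT and 402 to 466 CPM in null liver and did not overlap. Its members differed in direction, with *Pecam1* (42.2 to 43.3 against 57.7 to 67.0 CPM) and *Cdh5* higher in each null library, and *Kdr* (62.4 to 65.1 against 40.4 to 54.6 CPM) and *Tek* (18.9 to 22.2 against 11.4 to 17.5 CPM) lower. Their part in the ligand differences was not tested.

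**Figure D3:**
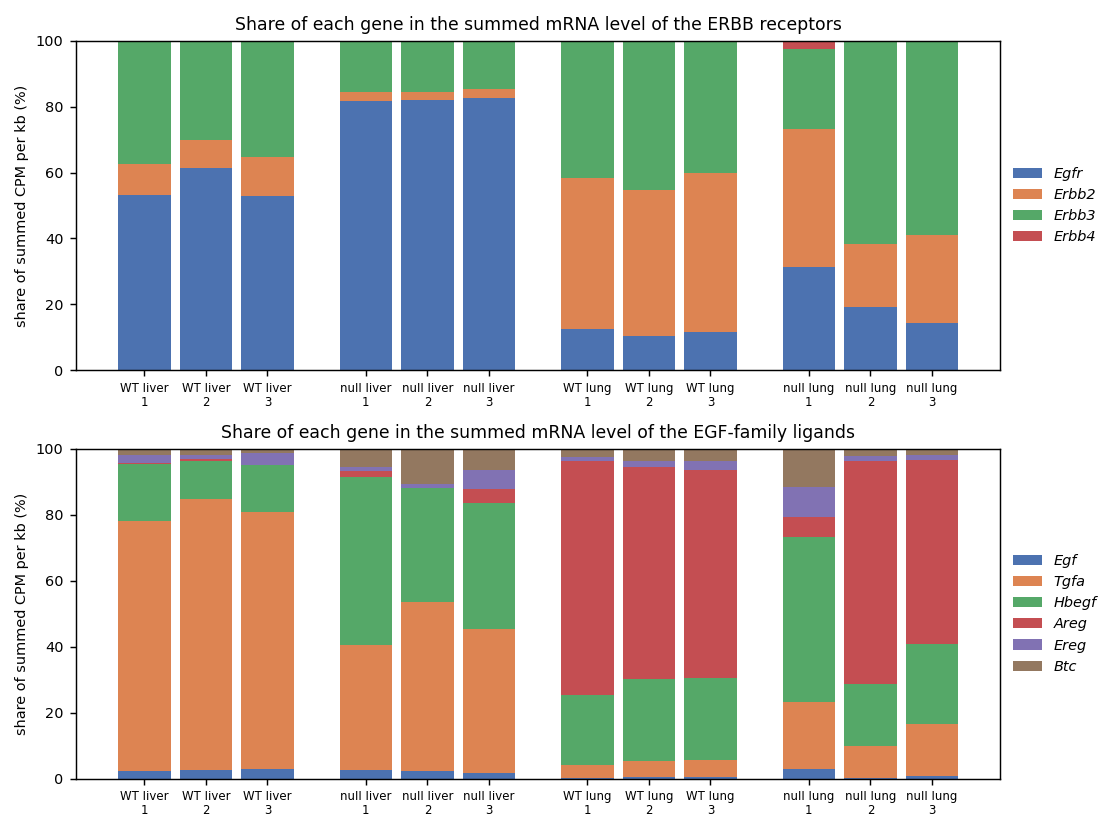
Share of each receptor (top) and each ligand (bottom) in the summed CPM per kb of its group (y axis, %), with 1 bar per library (x axis). *Egfr* takes 81.7 to 82.7% of the receptor bars in null liver against 52.9 to 61.5% in WT liver, *Tgfa* gives way to *Hbegf* and *Btc* in null liver, and *Areg* fills most of the ligand bars of lung except null lung 1.

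In lung none of the 9 other members was called over the 6 libraries, where 0.327% of 15591 genes were called (14 up and 37 down), with 3898 genes at an unadjusted p below 0.05. DESeq2 called *Tgfa* (adjusted p = 0.0169) and *Hbegf* (adjusted p = 0.0466). Without null lung 1, 37% of 15885 genes were called and 4 of the 8 members other than *Egfr* and *Erbb4* were among them, 2 up and 2 down. *Tgfa* and *Erbb3* rose, and *Hbegf* and *Btc* fell. *Erbb4* is left out of this count, since it passed the filter on low counts only through the null group.

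The ligand that was higher in null lung was *Tgfa*, at 9.90, 10.02 and 11.8 CPM in WT and 14.2, 21.9 and 21.3 CPM in null lung. All 3 null libraries were above the WT libraries, with a log2 fold change of 0.85 (SE 0.23, adjusted p = 0.105) over the 6 libraries and 1.03 (SE 0.15, adjusted p = 0.00232) without null lung 1. *Hbegf* was at 42.4, 37.4 and 40.8 CPM in WT and 26.2, 32.0 and 23.9 CPM in null lung. The null libraries lay below the WT libraries, with -0.55 (SE 0.16, adjusted p = 0.116) over the 6 libraries and -0.52 (SE 0.15, adjusted p = 0.0281) without null lung 1. *Btc* was at 4.45, 5.13 and 5.48 CPM in WT and 5.61, 3.39 and 1.75 CPM in null lung, where null lung 1 held the highest value. Its log2 fold change was -0.49 (SE 0.44, adjusted p = 0.516) with that library and -0.96 (SE 0.30, adjusted p = 0.0408) without it.

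*Areg*, *Ereg* and *Egf* gave no call in lung with or without null lung 1. *Areg* was at 35.6, 24.5 and 26.2 CPM in WT and 0.834, 29.0 and 13.9 CPM in null lung, so that null lung 1 was close to empty of it (22 reads) and null lung 2 was within the WT range. The log2 fold change was -0.98 (SE 0.997, adjusted p = 0.565), and -0.43 (SE 0.30, adjusted p = 0.300) without null lung 1. *Ereg* was at 2.15, 2.36 and 3.77 CPM in WT and 4.05, 2.01 and 1.17 CPM in null lung, and *Egf* at 1.40, 1.46 and 1.25 CPM in WT and 3.71, 1.17 and 1.46 CPM in null lung. Null lung 1 was the highest library for both. Without it the log2 fold change was -0.80 for *Ereg* (SE 0.36, adjusted p = 0.118) and -0.05 for *Egf* (SE 0.27, adjusted p = 0.897).

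Of the receptors, *Erbb3* was at 82.1, 88.2 and 74.99 CPM in WT lung and at 32.0, 167 and 172 CPM in null lung. Null lung 1 was below and the other 2 null libraries above the WT range, and the log2 fold change was 0.60 (SE 0.58, adjusted p = 0.549) over the 6 libraries and 1.05 (SE 0.10, adjusted p = 0.000754) without null lung 1. *Erbb2* was at 78.2, 74.9 and 78.5 CPM in WT and 47.4, 44.4 and 66.8 CPM in null lung. Its null libraries were below the WT libraries, and it passed no threshold with (-0.55, SE 0.18, adjusted p = 0.148) or without null lung 1 (-0.47, SE 0.17, adjusted p = 0.0594). *Erbb4* had 3, 3 and 3 reads in WT and 170, 17 and 14 reads in null lung. Null lung 1 held most of its reads. Without that library the pooled ratio was 4.15, with a counting interval from 1.93 to 9.91 that leaves out the spread between libraries. The highest remaining level was 0.444 CPM.

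Leaving out null lung 1, the summed markers of 4 lists did not overlap between the genotypes in lung, and those of all other lists did. With so few libraries, ranges may be apart without a genotype effect. The share of all genes with ranges apart was not computed, so neither these sums nor the single markers below are read as changes. Neutrophil markers summed to 230 to 373 CPM in WT and 597 to 633 CPM in null, muscle markers to 267 to 460 and 616 to 722 CPM, exocrine pancreas markers to 11.7 to 16.6 and 39.0 to 48.2 CPM, and the epithelial list used for bile duct cells to 980 to 1240 and 871 to 940 CPM. Within the neutrophil list *Ltf* and *Ngp* overlapped, while its other members were higher in null lung. Within the last list *Krt7* was lower (524 to 739 against 314 and 459 CPM) and *Epcam* higher in null lung (131 to 159 against 224 and 233 CPM). The sums of alveolar type 2 markers (26092 to 30161 against 25956 to 33370 CPM), alveolar type 1 markers (3833 to 4154 against 2916 to 3930 CPM) and airway secretory markers (3268 to 3863 against 3576 to 5831 CPM) overlapped. Of the alveolar type 1 list, *Rtkn2* (116 to 128 against 44.0 and 47.3 CPM) and *Hopx* (468 to 494 against 296 and 293 CPM) were lower. *Pdpn* was lower too (105 to 109 against 50.9 and 39.3 CPM), while *Ager*, *Aqp5* and *Cav1* overlapped. The other sums also hid members that were apart, such as *Sftpa1* and *Scgb3a2* (higher) and *Slc34a2* (lower). The part of these markers in the results of lung was not tested.

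**Figure D4:**
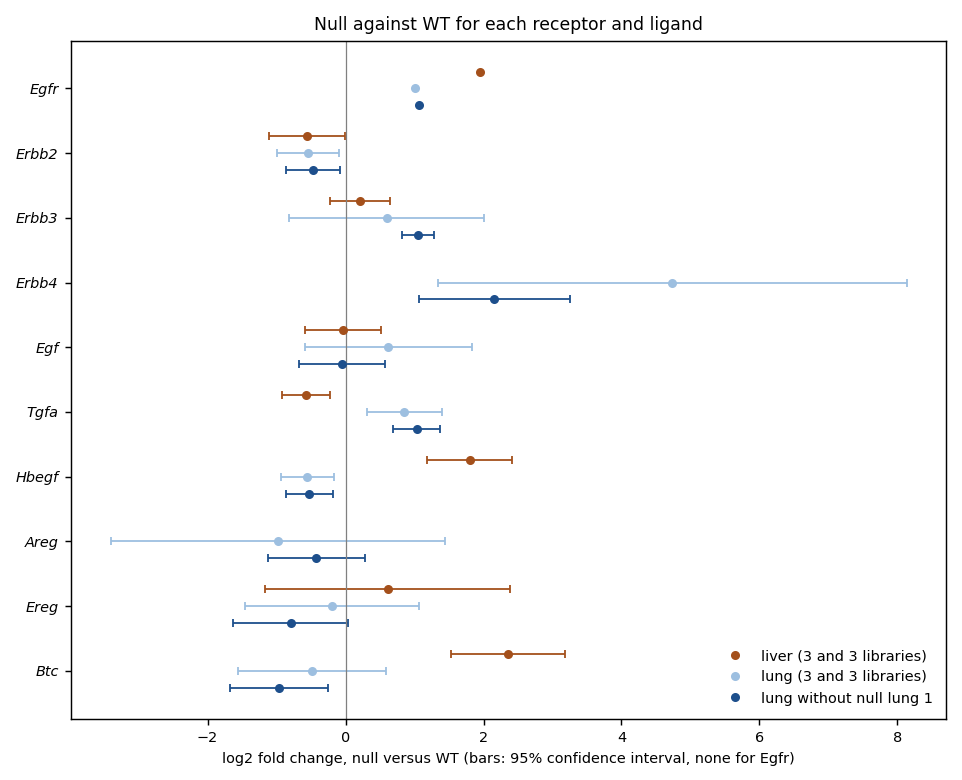
Log2 fold change of null against WT (x axis) for each receptor and ligand (y axis) in liver, in lung over all 6 libraries and in lung without null lung 1, with 95% confidence intervals except for *Egfr*. *Hbegf* and *Btc* lie to the right of 0 in liver and to the left in lung, and *Tgfa* the reverse. *Erbb4* and *Areg* have no liver value. *Erbb4* in lung and *Btc* in liver were tested only through their null reads.

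Whether the null effect differed between lung and liver was tested with an interaction term over the 12 libraries, in which 0.371% of 16155 genes were called. *Hbegf* was the 1 member called among the 9 tested, of which *Erbb4* and *Areg* were near 0 in liver. Its null effect in lung minus that in liver was -2.36 on the log2 scale (SE 0.32, adjusted p = 0.0189). Without null lung 1, 5% of 16257 genes were called and 3 of the 9 members with them. These were *Tgfa* (1.62, SE 0.21, adjusted p = 0.00377), *Hbegf* (-2.30, SE 0.33, adjusted p = 0.00691) and *Btc* (-3.30, SE 0.51, adjusted p = 0.00928). With all 12 libraries the interaction was 1.43 for *Tgfa* (adjusted p = 0.0618) and -2.85 for *Btc* (adjusted p = 0.0771). With genotype and library number as a replicate block, 0 genes were called over the 12 libraries (*Hbegf* -2.35, adjusted p = 0.105), and without null lung 1 the block gave *Tgfa* 1.51 (adjusted p = 0.00950), *Hbegf* -2.15 (adjusted p = 0.0116) and *Btc* -3.55 (adjusted p = 0.00630). Leaving out null liver 1 as well gave 1.497, -2.16 and -3.52 (adjusted p = 0.00345, 0.00469 and 0.00345). The log2 difference of *Egfr* was 1.004 in lung and 1.95 in liver. Beside *Egfr*, *Hbegf* and *Btc* were higher in null liver and *Tgfa* in null lung, though the reported fit over all lung libraries did not call *Tgfa*. Over the 12 libraries the difference between the tissues was called for *Hbegf* alone. That call was lost in most fits that left out 1 library, so the difference between the tissues is not firm.

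Levels in WT mice were compared between the tissues on a common TMM scale over the 6 WT libraries, where 77% of 15635 genes were called (6227 higher and 5812 lower in lung). Of the 9 members tested *Areg*, *Btc* and *Ereg* passed the filter on low counts only through lung. The others were all called, with *Erbb2*, *Erbb3* and *Hbegf* higher in lung and *Egfr*, *Tgfa* and *Egf* lower. *Egfr* was at 130, 116 and 107 CPM in liver and 37.3, 30.6 and 32.7 CPM in lung (log2 difference -1.81, SE 0.11, adjusted p = 3.86e-07), and *Tgfa* at 28.6, 31.9 and 27.7 CPM in liver and 7.91, 7.94 and 9.34 CPM in lung (-1.81, SE 0.11, adjusted p = 5.26e-07). The receptor and the ligand were thus both higher in liver, with no overlap. *Erbb2* was higher in lung by 2.66 (SE 0.15, adjusted p = 1.94e-07), *Erbb3* by 0.74 (SE 0.16, adjusted p = 0.00194, but 0.185 with all 12 libraries in 1 fit) and *Hbegf* by 2.999 (SE 0.15, adjusted p = 1.03e-07). *Btc* (3.17, SE 0.26) and *Ereg* (1.96, SE 0.40) were higher in lung too, given as a description. *Areg* separated the tissues most, with 3132 reads over the 3 WT lung libraries and 2 reads over the 3 WT liver libraries. The ratio was 1573, with a counting interval from 435 to 12993 that leaves out the spread between libraries. *Egf* was lower in lung by this scaling (-0.68, SE 0.21, adjusted p = 0.0145), but was not called with all 12 libraries in 1 fit (adjusted p = 0.159), without WT lung 3 (adjusted p = 0.0598) or with total counts alone (0.10, adjusted p = 0.673). Total counts shifted the median of all genes by 0.79 and gave 10133 higher and 2997 lower. *Egfr* and *Tgfa* stayed lower in lung on total counts (-1.02 and -1.02).

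Within a tissue the order of levels per kb in WT liver was *Egfr* (7.53 CPM per kb), *Erbb3* (4.69 ± 1.15), *Tgfa* (3.29 ± 0.236), *Erbb2* (1.35 ± 0.291) and *Hbegf* (0.599 ± 0.121), with *Egf* next at 0.112 and the other members below it (mean ± SD, n = 3). The gap between *Erbb3* and *Tgfa* was little more than the SD of *Erbb3*, so this order is not firm. In WT lung the order was *Areg* (23.7 ± 4.88 CPM per kb), *Erbb2* (14.8 ± 0.380), *Erbb3* (13.6 ± 1.10), *Hbegf* (8.32 ± 0.529), *Egfr* (3.73 ± 0.362), *Tgfa* (1.63 ± 0.165), *Btc* (1.11 ± 0.117) and *Ereg* (0.669 ± 0.214). *Erbb2* and *Erbb3* were again apart by little more than the SD of *Erbb3*. *Areg* made up 66.3% ± 4.15 of the ligand mRNA by length in WT lung and 61.8% as the mean of null lung 2 and 3, while null lung 1 had 6.33%. *Erbb2* and *Erbb3* together took most of the receptor mRNA of lung, at 46.1% ± 2.02 and 42.2% ± 2.65 in WT, and the share of *Erbb3* was 60.4% as the mean of null lung 2 and 3.

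Of 5 other ERBB ligands, the neuregulins and epigen, 3 were tested in liver and *Nrg4* was called, where 26.9% of all genes were called. *Nrg4*, a ligand of ERBB4, was at 13.1, 7.62 and 8.20 CPM in WT and 4.08, 4.65 and 2.66 CPM in null liver. It fell 2.53-fold (-1.34, SE 0.29, adjusted p = 0.0149), and by a log2 fold change of -1.39 without null liver 1. *Nrg4* overlaps *Fbxo22* on the other strand. *Nrg1* (0.11, adjusted p = 0.824) and *Nrg2* (0.15, adjusted p = 0.760) gave no call, and *Epgn* and *Nrg3* were too low, with at most 3 reads in a liver library. In lung 0 of 4 tested were called over the 6 libraries. Without null lung 1, 2 of 4 were called, where 37% of all genes were called. *Nrg2* (-1.43, adjusted p = 0.0181) and *Nrg4* (-1.32, adjusted p = 0.0384) were lower, while *Nrg1* (-0.19, adjusted p = 0.462) and *Epgn* (1.13, adjusted p = 0.270) were not called. *Nrg4* therefore was lower in each null library than in any WT library of the same tissue, though in lung it was called only without null lung 1. In lung this rests on 12, 8 and 16 reads in null against 29, 20 and 31 reads in WT.

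The proteases and cofactors that release the ligands showed 1 call in liver among 9 genes, *Rhbdf2*, a share below the 26.9% of all genes. Its product, iRhom2, is a cofactor that brings ADAM17 to the cell surface. *Rhbdf2* was at 24.0, 16.3 and 20.1 CPM in WT and 32.0, 36.7 and 45.6 CPM in null liver and rose (0.92, SE 0.18, adjusted p = 0.0103). In lung it was at 65.1, 67.4 and 61.2 CPM in WT and 23.4, 114 and 125 CPM in null, and without null lung 1 it rose as well (0.89, SE 0.10, adjusted p = 0.00111). *Adam17*, the main sheddase of TGF-alpha, amphiregulin and HB-EGF, was not called in liver (-0.29, adjusted p = 0.0512) or in lung without null lung 1 (-0.15, adjusted p = 0.377). *Adam10*, which releases EGF and betacellulin, was not called either (-0.23, adjusted p = 0.299, and -0.05, adjusted p = 0.804). The other values in liver were 0.12 for *Adam9*, 0.13 for *Adam12*, -0.14 for *Adam19*, 0.50 for *Rhbdf1*, -0.18 for *Frmd8* and 0.32 for *Timp3*, with adjusted p between 0.0532 and 0.672. In lung without null lung 1 *Adam19* fell (-0.78, adjusted p = 0.00298) and *Adam9*, *Adam12*, *Rhbdf1*, *Frmd8* and *Timp3* were not called.

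Among the 10 inhibitors and ubiquitin ligases that act on the receptors, 8 were called in liver (26.9% of all genes), 6 up and 2 down, with a median log2 fold change of 0.57 against 0.02 for all genes tested. Without null liver 1, 5 were called up and 2 down, and without WT liver 3, 2 up and 1 down. *Cblb*, a ubiquitin ligase that sends activated EGFR to the lysosome, was at 22.9, 19.3 and 19.5 CPM in WT and 58.5, 61.6 and 78.5 CPM in null liver. It rose with no overlap (1.69, SE 0.14, adjusted p = 0.00201). Its relatives *Cbl* (0.74, adjusted p = 0.0105) and *Cblc* (0.98, adjusted p = 0.0186) rose too, as did *Lrig3* (1.42, adjusted p = 0.00355), *Lrig2* (0.58, adjusted p = 0.0128) and *Socs4* (0.56, adjusted p = 0.0385). *Socs5*, which promotes the degradation of EGFR, fell (-1.27, adjusted p = 0.00588), and so did *Rnf41*, the ubiquitin ligase of ERBB3 (-0.66, adjusted p = 0.0458). Over 15 fits with the alternatives, *Socs4* was called in 7 and *Rnf41* in 10, against 13 to 15 for the other called genes of this list. *Errfi1*, a feedback inhibitor of the EGFR kinase, was at 622, 606 and 688 CPM in WT and 676, 587 and 1185 CPM in null liver (0.35, adjusted p = 0.327), and *Lrig1* was not called (-0.09, adjusted p = 0.717).

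In lung 0 of these 10 were called over the 6 libraries, and 5 up and 2 down without null lung 1 (37% of all genes). *Errfi1* had the largest rise, from 329, 419 and 413 CPM in WT to 1164 and 1199 CPM in null lung 2 and 3 (1.61, SE 0.13, adjusted p = 0.000542), while null lung 1 was at 124 CPM. *Cblb* rose (1.53, adjusted p = 0.00221), with 97.0, 84.1 and 71.0 CPM in WT and 183 and 301 CPM in those null libraries, against 75.1 CPM in null lung 1. *Lrig1* (0.93, adjusted p = 0.00231), *Lrig3* (0.68, adjusted p = 0.0204) and *Lrig2* (0.52, adjusted p = 0.00808) rose, and *Socs5* (-1.28, adjusted p = 0.00457) and *Rnf41* (-1.03, adjusted p = 0.0105) fell. *Cbl*, *Cblc* and *Socs4* were not called (0.28, -0.12 and 0.42). The difference between the tissues was called, without null lung 1, for *Lrig1* (1.05, adjusted p = 0.0340) and not for *Errfi1* (1.28, adjusted p = 0.0655).

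**Figure D5:**
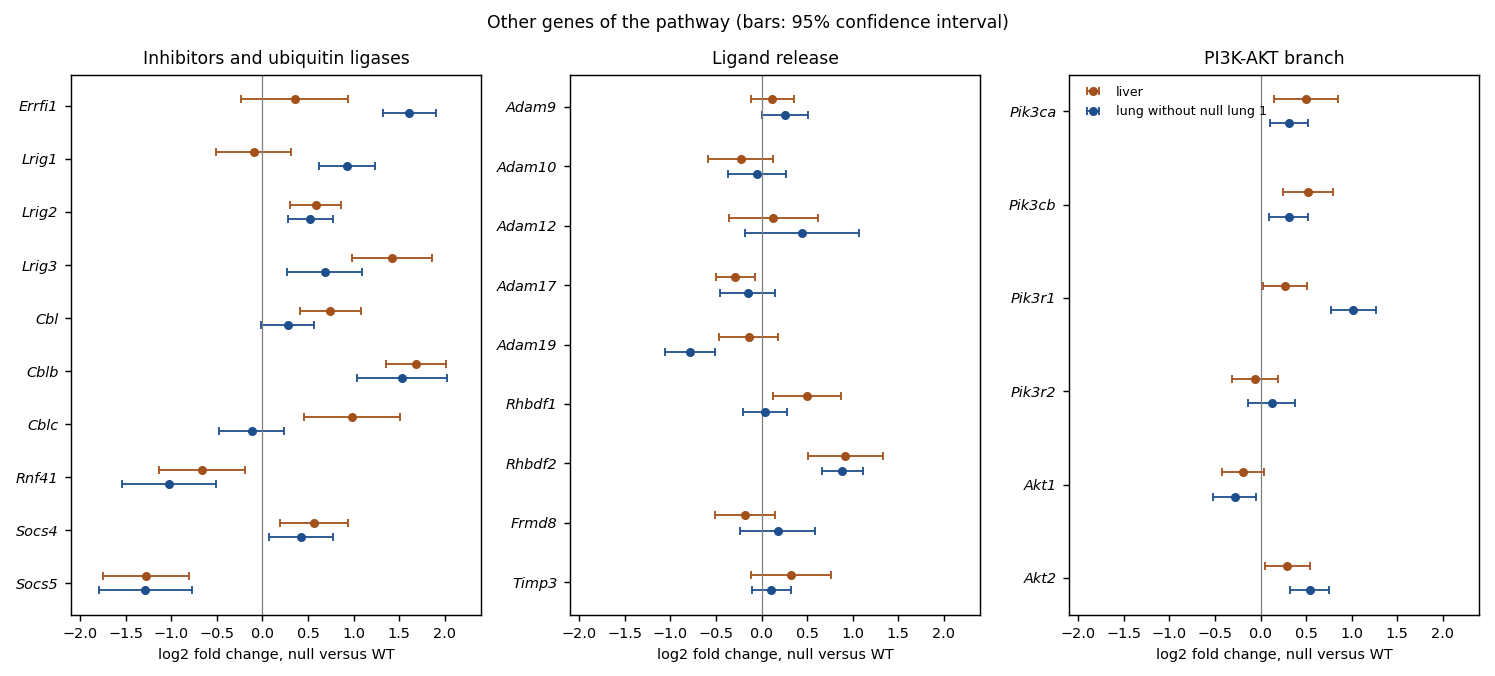
Log2 fold change of null against WT (x axis) with 95% confidence intervals in liver and in lung without null lung 1, for the inhibitors and ubiquitin ligases, the ligand release genes and 6 genes of the PI3K-AKT branch (y axis). *Cblb* and *Rhbdf2* lie to the right of 0 and *Socs5* and *Rnf41* to the left in both tissues.

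Downstream of the receptors, the 18 adaptors and RAS-ERK genes had 5 called up and 2 down in liver, where 26.9% of all genes were called, with a median of 0.17. The largest rises were those of the docking protein *Gab2* (1.10, SE 0.12, adjusted p = 0.00254) and the RAS exchange factor *Sos2* (0.88, SE 0.14, adjusted p = 0.00587), and the falls those of *Plcg1* (-0.46, adjusted p = 0.0197) and *Hras* (-0.45, adjusted p = 0.0329), with *Braf* (0.51), *Sos1* (0.42) and *Mapk3* (0.40) also up. Without null liver 1, 5 were called up and 1 down. With all 12 libraries in 1 fit 1 gene of this list was called. In lung 0 were called over the 6 libraries and 3 up and 4 down without null lung 1, near the 37% of all genes, with *Gab2* (1.31, adjusted p = 0.000588), *Sos2* (1.02) and *Braf* (0.82) up and *Hras* (-0.50), *Map2k2* (-0.48), *Araf* (-0.40) and *Nras* (-0.29) down. In the PI3K-AKT branch 2 of 8 genes were called in liver, near the 26.9% of all genes. These were the catalytic subunits *Pik3ca* (0.50, adjusted p = 0.0465) and *Pik3cb* (0.52, adjusted p = 0.0184), both up, though 1 was called without null liver 1 and 0 without WT liver 2 or WT liver 3. *Pik3r1* (0.27), *Pik3r2* (-0.06), *Akt1* (-0.19) and *Akt2* (0.29) were not called. In lung 0 of 8 were called over the 6 libraries, and 5 up and 1 down without null lung 1, where 37% of all genes were called. There the regulatory subunit *Pik3r1* rose (1.02, adjusted p = 0.00101), as did *Akt2* (0.54, adjusted p = 0.00433), *Pik3ca* (0.31, adjusted p = 0.0284) and *Pik3cb* (0.31, adjusted p = 0.0363).

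Genes that ERK signalling is known to induce gave 4 calls of 15 tested in liver, all upward, a share near the 26.9% of all genes. Their median log2 fold change was 0.67 against 0.02, and 14 of the 15 values were above 0. Null liver 3 was well above the other null libraries for *Egr1* (27.0, 6.44 and 112 CPM, against 6.87 to 12.8 CPM in WT). The same held for *Spry4* (3.80, 3.66 and 9.65 CPM, against 4.27 to 6.08 CPM in WT). *Dusp6* was at 24.0, 20.4 and 34.3 CPM, against 18.0 to 20.3 CPM in WT. For *Spry2* and *Etv5* null liver 1 was the highest, so the rise was not even over the null libraries. Leaving out WT liver 3 left 2 calls and leaving out null liver 2 gave 8. *Spry1*, a feedback inhibitor of receptor tyrosine kinase signalling, was at 19.5, 18.0 and 19.6 CPM in WT and 36.1, 36.0 and 53.9 CPM in null liver (1.14, SE 0.17, adjusted p = 0.00484). *Spred1*, an inhibitor of RAF activation, was at 24.8, 27.7 and 28.1 CPM in WT and 41.3, 45.6 and 67.1 CPM in null liver (0.93, SE 0.18, adjusted p = 0.0107). The groups of both genes did not overlap, and their relatives *Spred2* (0.88, adjusted p = 0.0111) and *Spry2* (0.66, adjusted p = 0.0326) rose as well. The same number was called without null liver 1. In lung 0 of 16 were called over the 6 libraries and 3 up and 5 down without null lung 1 (37% of all genes), where *Spred1* rose (0.69, adjusted p = 0.0128) and *Spry1* did not pass (-0.34, adjusted p = 0.0671). *Dusp4*, an ERK phosphatase (0.98), and *Spred2* (0.65) rose, and *Ccnd1*, a cyclin (-1.10), *Phlda1* (-1.04), *Ier3* (-1.01), *Spry4* (-0.54) and *Dusp5* (-0.52) fell. The interaction of *Spry1* was called without null lung 1 (-1.46, SE 0.25, adjusted p = 0.0127). For endocytic handling of the receptor, 4 of 12 genes rose and 1 fell in liver (26.9% of all genes called), led by *Epn2* (0.94, SE 0.16, adjusted p = 0.00698), an adaptor for clathrin-coated pits, and *Rab5a* (0.75, SE 0.11, adjusted p = 0.00506), the GTPase of early endosomes, while *Rab11a*, of recycling endosomes, fell (-0.44, adjusted p = 0.0394). *Asap1* (0.60) and *Stam* (0.51) also rose, and the counts were equal without null liver 1. In lung 0 of 12 were called over the 6 libraries, and 2 rose and 1 fell without null lung 1, a share below the 37% of all genes, with *Rab5a* at 0.78 (adjusted p = 0.00129), *Stam* at 0.70 (adjusted p = 0.00542) and *Rab11a* at -0.31 (adjusted p = 0.0371).

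The genes whose pattern over the 12 libraries lay closest to that of *Egfr* were outside the family. Likeness was the root mean square difference of log2 CPM, with each gene centred on its own mean, over 13818 genes tested in both tissues, whose median was 1.44. The closest were *Kif21a*, a kinesin (0.276), *Bnip3*, a mitochondrial protein induced by low oxygen (0.381), *Gcnt4*, a glycosyltransferase (0.388), *Ell2*, an elongation factor of RNA polymerase II (0.417), and *Slc25a32*, a mitochondrial carrier (0.418). Without null liver 1 and null lung 1 their ranks were 1, 4, 5, 3 and 14. *Kif21a* averaged 55.04, 169, 29.4 and 65.0 CPM in WT liver, null liver, WT lung and null lung. Of the family, *Tgfa* was closest, at 1.09 and rank 2268, and *Hbegf* and *Btc* were at 2.09 and 1.86. These values are a description, since the libraries share tissue and genotype.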

How the data were processed

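Poly(A) RNA from liver and lung was sequenced by the authors (TruSeq Stranded mRNA, NextSeq 500, read pairs) and counted per gene. The authors deposited raw counts, whole numbers per gene symbol, in 12 tables with 0 other columns of per-sample values. The submitters' processing notes name FastQC, STAR 2.5.2a, DESeq2 and mm10, and the annotation, counting program and strand setting are not given in the sources used here. Gene names turned into dates (27) were tested but not named. Samples were grouped by their titles, 3 libraries in each of 4 groups. The fits used edgeR 4.0.16 under R 4.3.3 (filterByExpr, TMM, quasi-likelihood test, Benjamini-Hochberg over all genes tested); calls needed an adjusted p below 0.05 and, except for the interaction, a 1.2-fold change. The code was tested on simulated data. DESeq2 1.42.0, other scalings, filters, leave-one-out fits and blocks were alternatives. Same-group libraries differed by at least 12.8 in chi-square per gene, above sampling noise, so each counted once. P-values measure the spread between libraries of a group. Counting intervals are exact (Clopper-Pearson, 95%) on pooled reads and cover counting error only. The study's methods name 3 mice of each genotype. The reported fits did not pair libraries. Liver and lung libraries of one number were paired only in the alternatives with genotype and number as a block. There the reason was that their deviations from the group means correlated at 0.222 to 0.424 in all 6 pairs. The sources do not state that a number marks 1 mouse.

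Members and lists were chosen with earlier results of these data known. Named were all members, every gene of lists of 10 or fewer genes, the 2 largest called rises and falls of longer lists, and the 5 genes most like *Egfr* (log2 CPM with a pseudocount of 0.5). Some genes of these lists are not reported here. Other called genes of longer lists, and values without null lung 1 with the interactions beside them, were chosen after the values were seen, as were the fits with 2 libraries left out, the block without null lung 1 and the total-count scaling.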

Additional observations from a re-analysis of the deposited data

Results flagged for a closer look

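The genotype effect of 3 ligands differed between lung and liver by a test of the difference itself. For *Hbegf* the null effect in lung minus that in liver was -2.36 (log2, edgeR interaction, adjusted p = 0.0189), a call lost in 8 of the 12 fits that left out 1 library (adjusted p = 0.0514 to 0.0944; WT liver 1, 2 and 3, null liver 1, WT lung 1, 2 and 3, and null lung 3). For *Tgfa* (1.62, adjusted p = 0.00377) and *Btc* (-3.30, adjusted p = 0.00928) the difference was called without null lung 1 and not with it (adjusted p = 0.0618 and 0.0771). Over the alternatives *Hbegf* ran from -2.57 to -2.15, *Tgfa* from 1.32 to 1.62 and *Btc* from -3.55 to -2.50.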

How the results depend on the processing

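Members of liver other than *Egfr* gave 2 or 3 calls under the alternatives, and *Hbegf* and *Btc* were called in each fit that tested them. *Btc* passed the filter of the reported fit only through the null group. The count of genes called in liver was 1921 with all 12 libraries in 1 fit and 1641 to 3451 with 1 library left out (2150, 2268 and 1641 without WT liver 1, 2 and 3). In lung the count of 51 became 2355 with DESeq2, 2 with its size factors, 109 with upper-quartile factors, 210 with 10 or more counts in every library, 0 with every gene of at least 1 count (with 3898 at an unadjusted p below 0.05 in the reported fit), 5 without the haemoglobin and 20 most abundant genes, 2284 with all 12 libraries, and 0 to 5881 with 1 library left out, the highest without null lung 1. Members called in lung were 2 with DESeq2, 2 with all 12 libraries, and 0 to 5 with 1 library left out (5 without null lung 1), where the counts with all 12 libraries and without null lung 1 include *Erbb4*, which passed the filter only through the null group. The interaction count of 60 became 617 with DESeq2, 92 and 33 with the stricter and looser filters, 0 to 813 with 1 library left out, 840 without null liver 1 and null lung 1, 0 with genotype and number as a replicate block, and 938 with the block and without null lung 1. Members called there were 3 with DESeq2, 2 with upper-quartile factors, 2 with the stricter filter, 0 with the block, 3 with the block and without null lung 1, 3 without both null libraries, and 0 to 3 with 1 left out. The stricter filter left 5 of 8 members other than *Egfr* called between the WT tissues. The WT and null libraries of a tissue share numbers only (correlations -0.0594 to 0.166): with the replicate block 0 genes were called in lung, and no call of a liver member changed. The cause of these changes was not tested.

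Directions reversed for values that were not called in the reported fit. In liver these were *Egf* (0.0155, 0.00821 and 0.0187 without WT liver 3, null liver 2 and null liver 3, with a lowest value of -0.17), *Ereg* (-0.69 to 1.11), *Errfi1* (-0.0151 to 0.53), *Nrg1* (-0.16 to 0.26), *Nrg2* (-0.17 to 0.37), *Adam12* (-0.0140 to 0.36) and *Lrig1* (-0.29 to 0.0371), as ranges over fits without 1 library. In lung the ranges were -0.0522 to 0.91 for *Egf*, -0.80 to 0.13 for *Ereg*, -0.24 to 0.0360 for *Rhbdf1*, -0.58 to 0.18 for *Frmd8*, -0.53 to 0.11 for *Timp3*, -0.31 to 0.28 for *Cbl* and -0.28 to 0.31 for *Pik3cb*, with the change of sign without null lung 1 except for *Ereg* (WT lung 3 or null lung 3), and *Pik3cb* was then called. In the interaction *Erbb2* was -0.0128 with the block and -0.16 to 0.17 without 1 library. *Erbb4* was -0.87 to 2.80 without 1 library, -0.17 without both null libraries and -0.22 with the block and without null lung 1, and *Ereg* was -1.76 to 0.47 without 1 or both null libraries. Between WT tissues *Egf* was called and became 0.10 with total counts. Depth limits *Erbb4*, and *Areg* in liver, which lie near the floor of 3 reads.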
